A study of Mus musculus with 9 samples.

Results

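Cytosolic ribosomal protein genes are described here, chosen as the rows of the deposited count tables whose gene symbol starts with Rpl or Rps. This gave 4 genes, Rps28, Rps29, Rps27rt and Rpl39-ps, of 237 genes in the table that set overexpression of YTHDF1 and YTHDF2 against the insoluble fraction, and the same 4 of 194 genes in the table that set YTHDF2 immunoprecipitation against the insoluble fraction. The samples were RNA of C57BL/6 mouse medial prefrontal cortex (mPFC), as 9 libraries. Replicates 1 to 3 were given for each of the insoluble fraction of mice aged 22 months ("insoluble"), samples with both YTHDF1 and YTHDF2 overexpressed ("OE"), and RNA pulled down with YTHDF2 ("RIP"). The labels give neither the age of the OE and RIP mice, nor the vector or promoter used for overexpression, nor the fraction sequenced in OE, nor any untreated or input library. Whether the replicates came from separate animals is not stated either, so p-values measure only the spread between these libraries, which may be technical.

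Ribosomal proteins are the protein part of the cytosolic ribosome. Those named Rps belong to the small subunit, which decodes the mRNA, and those named Rpl to the large subunit, which joins amino acids. Their mRNAs are short and abundant, many carry a pyrimidine tract at the start through which their translation is controlled together, and the mouse genome holds many processed copies of them, made by reverse transcription of the mRNA. YTHDF1 and YTHDF2 are cytoplasmic proteins that bind RNA carrying N6-methyladenosine (m6A), and YTHDF2 is known for promoting the decay of such RNA.

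The 4 symbols stand for different kinds of locus. In the GENCODE M21 annotation of GRCm38, Rps28 (ENSMUSG00000067288) lies on the minus strand at chr17:33819027-33824562 and Rps29 (ENSMUSG00000034892) on the minus strand at chr12:69157722-69159186. Both are protein-coding genes with introns, with 4 exons in the coding transcript of Rps28 and 3 in that of Rps29. Rps27rt (ENSMUSG00000050621), on the minus strand at chr9:114982366-114982739, is annotated as protein-coding but consists of 1 exon and is a retrotransposed copy of Rps27. Rpl39-ps (ENSMUSG00000036305), on the plus strand at chr15:102635038-102635188, is annotated as a processed pseudogene and not as a ribosomal protein gene. The name of the group therefore fits 3 of the 4 rows by annotation.

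The sequences below, of 3 of the 4 rows and of 1 parent gene, show how short these RNAs are and how close the copies stand to their parent genes, which bears on where a read can be assigned. They are the coding sequences of Rps28 and Rps27rt, the annotated pseudogene transcript of Rpl39-ps and the coding sequence of Rpl39, from the GENCODE M21 transcripts. The capital in Rpl39-ps marks the base that differs from the Rpl39 transcript.
Rps28: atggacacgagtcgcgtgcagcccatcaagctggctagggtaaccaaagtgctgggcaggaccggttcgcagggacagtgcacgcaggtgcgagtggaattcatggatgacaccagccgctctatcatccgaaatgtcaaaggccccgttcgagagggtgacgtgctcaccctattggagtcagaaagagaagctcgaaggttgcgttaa
Rps27rt: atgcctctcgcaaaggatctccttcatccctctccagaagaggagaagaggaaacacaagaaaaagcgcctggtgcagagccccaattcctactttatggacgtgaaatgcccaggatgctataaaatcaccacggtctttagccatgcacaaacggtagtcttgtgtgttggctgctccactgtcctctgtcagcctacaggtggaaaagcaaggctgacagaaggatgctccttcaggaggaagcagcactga
Rpl39-ps: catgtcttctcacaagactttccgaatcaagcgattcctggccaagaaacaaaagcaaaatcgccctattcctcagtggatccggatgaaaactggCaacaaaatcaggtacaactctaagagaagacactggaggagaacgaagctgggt
Rpl39: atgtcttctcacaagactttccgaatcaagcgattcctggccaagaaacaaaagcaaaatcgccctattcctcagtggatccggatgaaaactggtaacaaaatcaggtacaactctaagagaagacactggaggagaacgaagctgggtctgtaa

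The coding sequence of Rps27rt was identical to that of Rps27 at 255 of 255 bases. Over the whole transcript of 374 bases, 341 bases aligned to the coding transcript of Rps27 without a mismatch, and the 33 bases at the end did not align. Rpl39-ps matched the Rpl39 transcript at 150 of its 151 bases. Neither Rps27 nor Rpl39, the genes these copies come from, was among the rows analysed here.

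The share of each gene's own sequence was measured as the percentage of 50-base words of its longest transcript that no other gene's transcripts contain, on either strand. It was 94.0% for Rps28, 73.5% for Rps29, 49.0% for Rpl39-ps and 8.92% for Rps27rt. Rps27rt shared 296 of its 325 words with Rps27, and Rpl39-ps shared 52 of its 102 words with Rpl39. Rps28 shared words with 7 genes and Rps29 with 6, all annotated as pseudogenes. The longest annotated transcripts of Rps28 and Rps29, at 1443 and 461 bases, are forms with a retained intron. Their shares describe those forms and not the spliced mRNAs, whose shares were not measured. Among the listed genes, none shared a 50-base word with the longest transcript of any of the 4. With 30-base words, 1 listed gene shared words with Rps28 and 1 with Rps27rt. Other transcripts of the 4 were not searched. Counts of Rps27rt and Rpl39-ps are uncertain, given the words they share with their parent genes. How certain the counts of Rps28 and Rps29 are cannot be told from the shares of their longest forms. How the authors treated reads that fit several places is not given in the sources used here.

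Rps28 and Rps27rt also lie across other genes. The span of Rps28 overlaps Kank3, which is transcribed from the opposite strand, by 3892 bases, of which 88 are exonic in both genes. Rps27rt lies inside Osbpl10 on the opposite strand and shares 0 exonic bases with it. Whether the counting used strand is not given in the sources used here.

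The 4 rows belong to the short end of the family. Of 90 annotated protein-coding genes with ribosomal protein symbols, close paralogues included, 3 were in the tables, Rps28, Rps29 and Rps27rt. Their coding lengths with the stop codon were 171 bases for Rps29, 210 for Rps28 and 255 for Rps27rt, at ranks 4, 5 and 8 from the shortest of the 90. The median of the 90 genes was 457.5 bases. Rpl39, which Rpl39-ps resembles, has 156 bases and rank 2. The longest transcripts of the 4 had a median of 417.5 bases, against 3169 bases over the 236 listed genes found in the annotation. Only 16 of those 236 genes had a longest transcript under 500 bases, and 3 of the 16 were Rps29, Rps27rt and Rpl39-ps.

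**Figure D1:**
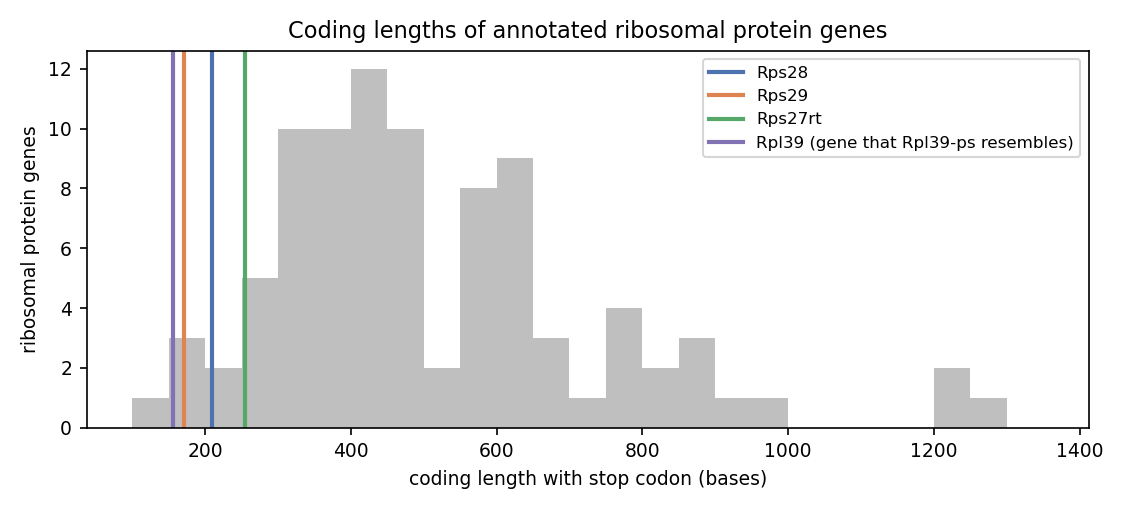
Histogram of the coding length with stop codon, in bases (x axis), over the 90 annotated ribosomal protein genes (y axis, number of genes per 50-base bin). Coloured lines mark Rps28, Rps29, Rps27rt and Rpl39, which all lie between 156 and 255 bases, below the family's median of 457.5 bases.

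The tables hold selected genes, so a library's total covers only these rows, and its sequencing depth is unknown. Over the 194 genes that both tables list, the totals ran from 61610 to 71736 counts in insoluble, from 73851 to 91271 in OE and from 79389 to 83620 in RIP. Levels below are counts per 1000000 of these listed counts (CPM), so they are shares of the listed genes only. Fewer cells expressing a gene and less of its RNA per cell cannot be told apart in such libraries. Of the markers fixed for neurons, astrocytes, oligodendrocytes and microglia, 0 were in either table, so the brain label could not be checked against them. Of 12 endothelial markers, 8 were in both tables, with a summed level of 9450 to 9750 CPM in insoluble, 9390 to 9780 in OE and 12700 to 20700 in RIP. The markers did not move together in RIP against insoluble. At an adjusted p under 0.05 by edgeR, Kdr (log2 fold change -0.77) and Cdh5 (-0.71) were lower. Erg (1.74), Sox18 (0.88) and Sox17 (0.87) were higher. Cldn5 (0.40), Vwf (0.15) and Tie1 (2.26 ± 0.95 SE) did not pass. The part of endothelial cells in the results below was not tested. RIP libraries differed from each other by much more than counting error, with ratios of chi-square to degrees of freedom of 5.96 to 12.8 between pairs, against 1.17 to 1.33 in insoluble and 1.54 to 2.59 in OE.

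In RIP the 4 genes moved apart, with Rps28 and Rpl39-ps higher and Rps29 and Rps27rt lower than in either other group, whereas OE and insoluble differed in Rps29. Together the 4 genes held 0.515% ± 0.0333 of the listed counts in insoluble, 0.604% ± 0.0301 in OE and 1.40% ± 0.0908 in RIP (SD, n = 3 each). The composition differed more than the sum. Rps28 made up 51.2% to 57.2% of the counts of the 4 genes in insoluble, 47.1% to 52.7% in OE and 85.2% to 87.7% in RIP. Rps27rt went from 22.9% to 28.5% in insoluble and 21.4% to 24.4% in OE to at most 0.168% in RIP.

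**Figure D2:**
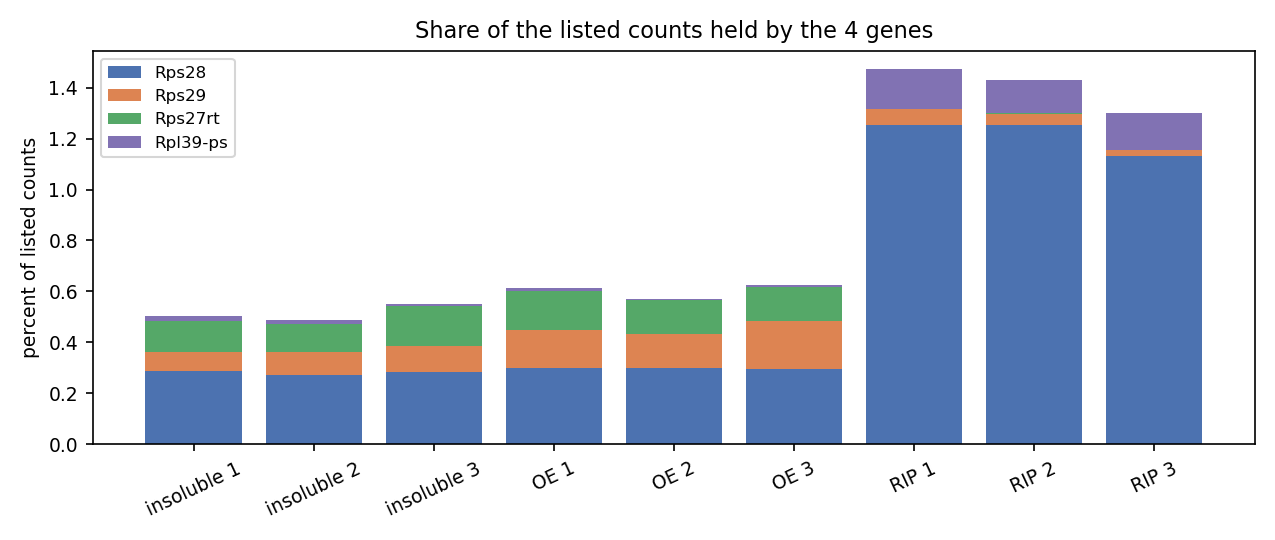
Stacked bars of the percentage of listed counts (y axis) held by each of the 4 genes in each of the 9 libraries (x axis). The 3 RIP bars reach 1.30% to 1.47% and consist mostly of Rps28, and the 6 other bars stay between 0.487% and 0.627%.

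One warning applies to every RIP value below. In the authors' deposited RIP table, the fold change beside each of these 4 rows did not match the counts of the row in either direction. For Rps28 that deposited table gives a fold of 0.701 (unadjusted p = 5.31e-07), while the ratio of RIP to insoluble shares was 4.31 and its inverse 0.232. The authors' deposited table gives 0.954 for Rpl39-ps (unadjusted p = 0.279) and 0.954 for Rps29 (unadjusted p = 0.985), where the count ratios were 10.2 and 0.489. For Rps27rt the authors' deposited table gives 0.270 (unadjusted p = 0.635), where the count ratio was 0.00611. The deposited direction of that column is not stated, and the deposited folds of all 4 lie below 1, whereas 2 of the count ratios lie above 1 and 2 below. The mismatch was not limited to these rows. Rows were compared if their count ratio (with 0.5 added) was at least 1 on the log2 scale in either direction. A mismatch meant that the authors' deposited fold lay more than 0.5 on the log2 scale from both the ratio and its inverse. These limits were set after the values had been seen. Of 101 such RIP rows, 86 mismatched, against 7 of 14 such OE rows. All 14 OE rows had a deposited fold in the direction of insoluble over OE, so those 7 mismatched in size only. An example was Foxf2, with a deposited log2 fold of 3.07 and a log2 count ratio of -2.15. Among the 86 RIP rows both directions occurred, as Rps28 had opposite signs on the log2 scale and Rps27rt the same sign. The deposited mean signal of each of the 4 genes was the same in the OE and RIP tables, at 214.3 for Rps28 and 8.525 for Rpl39-ps. In RIP against insoluble, the normalised counts of Rps28 averaged 219.2 in insoluble and 871.9 in RIP. Those of Rpl39-ps averaged 11.02 and 103.3, so both deposited means lay below both group means. The deposited mean of Rps29, 91.35, lay above both of its group means, 68.9 and 31.2. That of Rps27rt, 99.46, lay between 101.7 and 0.59. In OE against insoluble, the deposited mean of each of the 4 genes lay between the group means. With insoluble first, these were 204.6 and 230.5 for Rps28 and 64.3 and 121.6 for Rps29. They were 94.9 and 107.1 for Rps27rt and 10.28 and 6.95 for Rpl39-ps. For these 4 genes, the mean signal deposited beside the RIP counts thus matched the OE comparison and could not serve to check the RIP counts. With the folds not matching either, the assignment of RIP counts to gene names could not be checked, for these 4 genes or for most of the table. Whether counts or deposited values stand beside other names than their own was not tested. In the OE table the deposited folds followed the ratio of insoluble to OE, with 0.908 against 0.947 for Rps28, 0.903 against 0.945 for Rps27rt, 1.51 against 1.58 for Rpl39-ps and 0.540 against 0.564 for Rps29, the first of each pair being from the authors' deposited table.

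**Figure D3:**
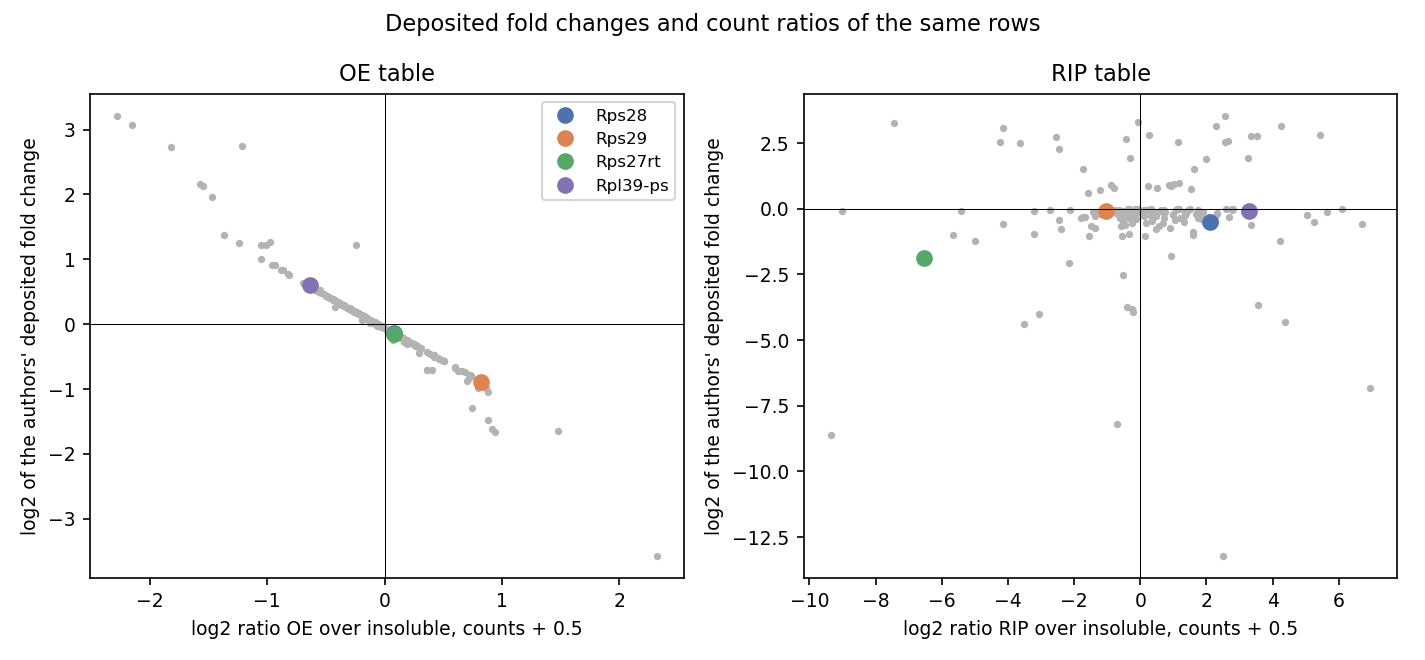
Log2 of the authors' deposited fold change (y axis) against the log2 ratio of OE or RIP to insoluble shares computed from the counts of the same rows after adding 0.5 (x axis), with other genes in grey. In the OE table the 4 genes lie on the falling line of the other genes (the point of Rps28 lies under that of Rps27rt), and in the RIP table they do not lie on a line.

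Rps29 encodes a small zinc-binding protein of the head of the small subunit. Its raw counts were 53, 59 and 64 in insoluble replicates 1 to 3, 137, 113 and 140 in OE and 52, 35 and 20 in RIP. As shares of the listed counts, insoluble libraries lay between 738.8 and 1039 CPM, OE libraries between 1330 and 1896, and RIP libraries between 251.9 and 627.1. The 3 groups did not overlap, with OE highest and RIP lowest. Groups that did not overlap in normalised counts were also seen in 49.2% of tested genes in OE against insoluble, 87.9% in RIP against insoluble and 84.8% in RIP against OE.

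Rps29 rose in OE against insoluble, from 64.3 ± 11.2 to 121.6 ± 22.1 normalised counts (SD, n = 3 each; raw counts divided by the library's scaled size relative to the mean). The log2 fold change was 0.92 ± 0.15 (SE), a fold of 1.89, with a BH-adjusted p of 9.98e-08 by edgeR's quasi-likelihood test. This was rank 4 from the highest log2 fold change among 195 tested genes. Rps29 was the 1 of the 4 genes called, where 39.5% of all tested genes were called in this comparison at an adjusted p under 0.05 21.0% higher and 18.5% lower. The authors' deposited table has an unadjusted p of 5.69e-05 for this row.

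Rps29 fell in RIP against insoluble, from 68.9 ± 11.9 to 31.2 ± 13.6 normalised counts (SD, n = 3 each). The log2 fold change was -1.13 ± 0.30 (SE), with an edgeR BH-adjusted p of 0.0062. Against OE it fell further, with a log2 fold change of -2.14 ± 0.32 (SE) and an edgeR BH-adjusted p of 0.00042, or 4.42-fold lower in RIP. The RIP replicates were unequal, with a coefficient of variation of 43.5% in share, against 17.0% in insoluble and 18.4% in OE.

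Rps28 encodes another small protein of the small subunit, near the path of the mRNA. Its raw counts were 207, 184 and 174 in insoluble, 274, 255 and 218 in OE and 1041, 1047 and 896 in RIP. The share of listed counts was 2815 ± 75.9 CPM in insoluble, 2985 ± 28.8 in OE and 12121 ± 722.9 in RIP (SD, n = 3 each). Each RIP library held over 3 times the share of any other library.

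Rps28 rose in RIP against insoluble by a log2 fold change of 1.99 ± 0.08 (SE), a fold of 3.98, with an edgeR BH-adjusted p of 5.26e-08. Against OE it rose by 1.72 ± 0.09 (SE), a fold of 3.30, with an edgeR BH-adjusted p of 1.17e-06. Between OE and insoluble the log2 fold change was 0.17 ± 0.10 (SE; 95% interval -0.02 to 0.36), with an edgeR BH-adjusted p of 0.156. The normalised counts of these groups did not overlap, 204.6 ± 5.85 in insoluble and 230.5 ± 2.94 in OE (SD, n = 3 each), as was the case for 49.2% of the tested genes.

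Kank3, which overlaps Rps28 on the opposite strand, is itself listed. It encodes an ankyrin-repeat protein, and its counts were 100, 118 and 87 in insoluble, 122, 105 and 81 in OE and 322, 353 and 259 in RIP. In RIP against insoluble Kank3 rose by 1.21 ± 0.15 (SE) on the log2 scale, with an adjusted p of 9.42e-05 by edgeR. The part of reads from the shared 88 bases in either gene was not tested.

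Rps27rt encodes the same protein sequence as Rps27, a zinc-binding protein of the small subunit, since the coding sequences do not differ. Its raw counts were 88, 75 and 97 in insoluble, 137, 112 and 99 in OE, and 0, 2 and 0 in RIP. OE and insoluble overlapped, at 107.1 ± 6.98 and 94.9 ± 17.9 normalised counts (SD, n = 3 each). The log2 fold change between them was 0.19 ± 0.14 (SE; 95% interval -0.09 to 0.46), with an edgeR BH-adjusted p of 0.283.

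Rps27rt fell in RIP against both groups. With 260 counts in insoluble and 2 in RIP, the ratio of insoluble to RIP after scaling was 173 (95% exact interval 47.3 to 1430, counting error only). With 348 counts in OE, the ratio of OE to RIP was 211 (57.9 to 1750). The edgeR BH-adjusted p was 1.17e-06 against insoluble and 1.52e-06 against OE. Without RIP replicate 2 the RIP libraries held 0 counts, and Rps27rt was at least 76.5-fold lower than in insoluble and at least 93.6-fold lower than in OE, against a floor of 3 counts over the group. Its log2 fold change was the fourth lowest of 190 genes tested in RIP against insoluble (rank 4) and the third lowest of 191 in RIP against OE (rank 3).

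Rpl39-ps is a copy of the gene of Rpl39, a protein that lines the exit tunnel of the large subunit. Its raw counts were 14, 10 and 5 in insoluble, 13, 4 and 6 in OE and 129, 110 and 115 in RIP. At these low counts OE and insoluble overlapped, and a difference was not detectable, with a log2 fold change of -0.56 ± 0.51 (SE; 95% interval -1.56 to 0.44) and an edgeR BH-adjusted p of 0.382. Rpl39-ps rose in RIP by a log2 fold change of 3.19 ± 0.23 (SE) against insoluble (edgeR BH-adjusted p = 2.07e-06), from 11.02 ± 4.43 to 103.3 ± 6.68 normalised counts (SD, n = 3 each). Against OE it rose by 3.65 ± 0.28 (SE; edgeR BH-adjusted p = 1.04e-05).

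**Figure D4:**
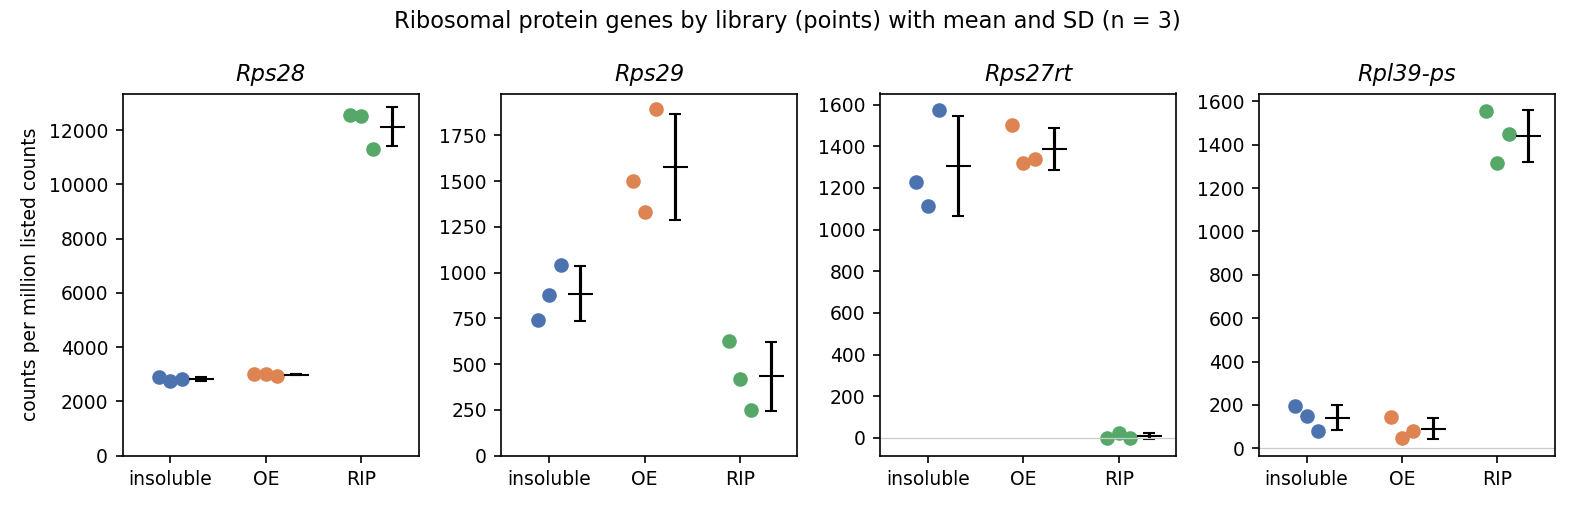
CPM of the listed counts (y axis, linear, a scale of its own for each gene) in the 3 insoluble, 3 OE and 3 RIP libraries (points), with the mean and SD of each group in black. Rps28 and Rpl39-ps are highest in the 3 RIP libraries, Rps27rt is at 0 in 2 RIP libraries and at 23.9 in the other one, and Rps29 is highest in OE.

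All 4 genes were called in both comparisons that involve RIP, 2 higher and 2 lower each time. Most listed genes were called there as well, 85.3% of 190 in RIP against insoluble and 81.7% of 191 in RIP against OE, so the number of calls does not set the 4 genes apart. The median size of the 4 was above that of all tested genes, though not every gene was. The median absolute log2 fold change of the 4 was 2.59 against 1.06 over all tested genes in RIP against insoluble. It was 2.90 against 1.07 in RIP against OE, and 0.37 against 0.22 in OE against insoluble. In the last comparison Rps28 at 0.17 and Rps27rt at 0.19 lay below 0.22. With signs, the medians of the 4 were 0.43, -0.21 and 0.18, beside 0.03, -0.10 and -0.01 over all tested genes. The comparisons share libraries, so their values stand side by side and are not independent.

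**Figure D5:**
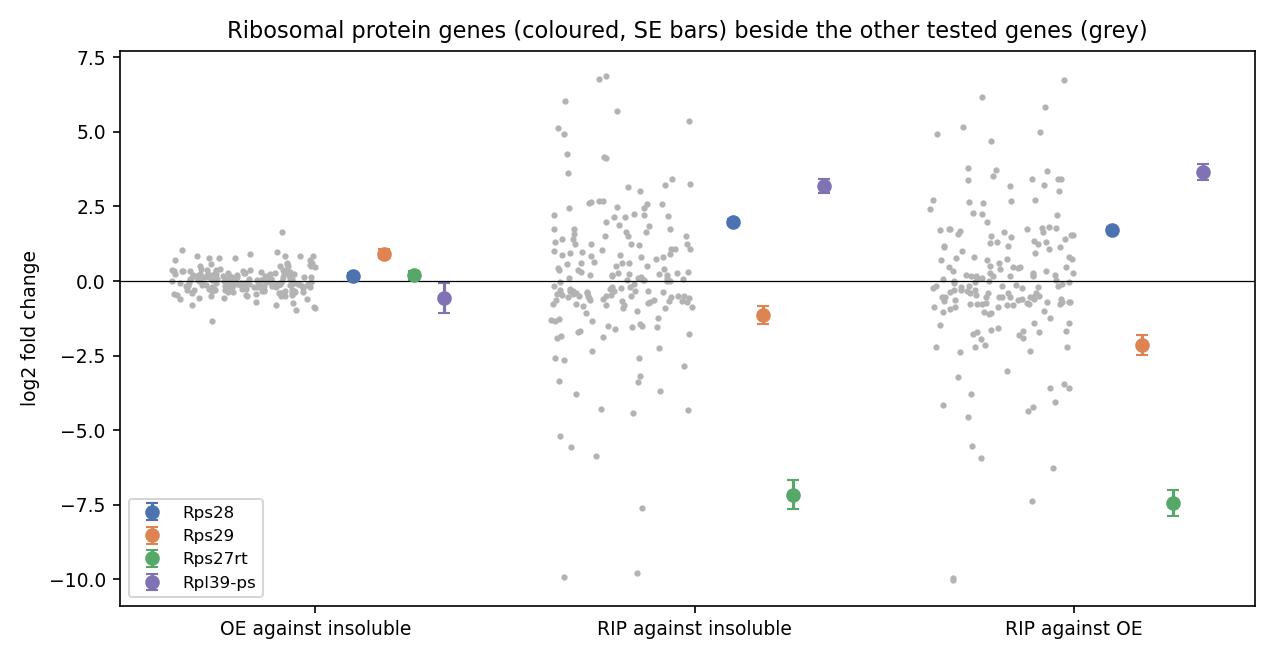
Log2 fold change (y axis) of the 4 genes, with SE bars, beside the other tested genes (grey points, spread sideways for legibility) in the 3 comparisons (x axis). In OE against insoluble Rps29 lies at 0.92 near the upper end of the grey points, and in both RIP comparisons Rps28 and Rpl39-ps lie above 0 and Rps29 and Rps27rt below 0.

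Levels of different genes were compared only after division by transcript length, and the order depended on which length was used. With the longest annotated transcript, the levels in insoluble were 3490 ± 641 CPM per kilobase for Rps27rt, 1951 ± 52.6 for Rps28, 1919 ± 326 for Rps29 and 938 ± 380 for Rpl39-ps (SD, n = 3 each). Rps28 and Rps29 did not differ beyond their spread on this scale. With the longest coding transcript, which is 437 bases for Rps28 and 390 for Rps29, Rps28 led at 6441 ± 174 and Rps29 stood at 2269 ± 385. In OE the levels per length of the longest transcript were 3707 ± 267 for Rps27rt, 3418 ± 629 for Rps29, 2069 ± 19.9 for Rps28 and 598 ± 320 for Rpl39-ps, and the first 2 did not differ beyond their spread. With the coding transcript Rps28 led in OE at 6831 ± 65.8. Rps29 at 4040 ± 744 and Rps27rt at 3707 ± 267 did not differ beyond their spread there. In RIP Rpl39-ps was at 9536 ± 797, Rps28 at 8400 ± 501, Rps29 at 938 ± 408 and Rps27rt at 21.3 ± 36.9, and with the coding transcript Rps28 led at 27736 ± 1654.

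Across the 9 libraries, the log2 shares (with 1 added) of Rps28 and Rpl39-ps correlated at a Pearson r of 0.947 and those of Rps27rt and Rps29 at 0.804. The 4 pairs across these 2 groups had r from -0.948 to -0.800. These values mostly restate the gap between RIP and the other 6 libraries and share the library totals. Of the 193 other genes in both tables, those most like Rps28 in pattern were Foxf1 (r = 0.995) and Dock6 (0.994). For Rps27rt they were Dnah6 (0.994) and Usmg5 (0.991), for Rpl39-ps mt-Rnr2 (0.987) and Atp10a (0.974), and for Rps29 Gata2 (0.892) and Drd2 (0.888), each over 9 libraries.

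A wider list of ribosome and translation genes, with initiation and elongation factors, mitochondrial ribosomal proteins, nucleolar proteins and other ribosome-bound proteins, had 5 members in both tables. Beside the 4 genes described, this was Tma7-ps, a pseudogene of the translation machinery associated gene Tma7. Tma7-ps held 2, 4 and 4 counts in insoluble, 7, 7 and 8 in OE and 237, 239 and 232 in RIP. Of the 5, 3 rose and 2 fell in each RIP comparison, against 40.5% of tested genes called higher and 44.7% called lower in RIP against insoluble, and 37.7% and 44.0% in RIP against OE. Tma7-ps was too low to be tested in OE against insoluble, and rose by 5.69 ± 0.22 (SE) on the log2 scale in RIP against insoluble (edgeR BH-adjusted p = 4.24e-08).

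The tables were also searched for ribosomal protein sequence under other names. Gm12191 had 90.6% of the 30-base words of its transcript in common with the coding transcript of Rpl30, a large-subunit protein gene, and every other listed gene found in the annotation had under 5% with any ribosomal protein gene. This gene was found after the rule had been applied and is not one of the 4. Its counts were 137, 117 and 127 in insoluble, 187, 177 and 165 in OE and 13, 8 and 15 in RIP. Gm12191 fell in RIP against insoluble by 3.80 ± 0.21 (SE) on the log2 scale (edgeR BH-adjusted p = 3.65e-07), and its log2 fold change in OE was 0.24 ± 0.11 (SE; edgeR BH-adjusted p = 0.0812). Of the 3 rows that are copies of ribosomal protein genes, Rps27rt and Gm12191 were thus lower in RIP and Rpl39-ps was higher.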

How the data were processed

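RNA-seq of mouse mPFC was taken from 2 deposited tables of raw counts per gene and library, named so per the file headers. The submitters' processing notes name HISAT2 2.1.0, Bowtie2 2.2.3, HTSeq 0.6.0 and mm10, with no role for each; the criterion for listing genes and the use of strand are not given in the sources used here. The authors' deposited tables also hold a fold change (a linear ratio), an unadjusted p-value and a mean signal of each gene. The mean signal was used here only to compare the tables. Blank rows (724 of 961 in the OE table, 75.3%) were left out.

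Each comparison was fitted on its 6 libraries over the whole table with edgeR 4.0.16 (R 4.3.3): filterByExpr (minimum count 10, minimum total 15), TMM, quasi-likelihood test, Benjamini-Hochberg (BH) adjustment over all tested genes, calls under 0.05. RIP against OE joined the tables by gene identifier. Alternatives were DESeq2 1.42.0, other scalings, no filter, a replicate block and leaving out each library. The code was tested on simulated data. Sequences and positions come from GENCODE M21 (GRCm38), aligned with Biopython 1.88. Every ribosomal protein row was named; the genes, lists and tests were chosen with earlier results of these data known.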

Additional observations from a re-analysis of the deposited data

How the results depend on the processing

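All 12 values of the 4 genes (4 genes in 3 comparisons) kept their direction and their side of the adjusted p of 0.05 in each of 12 alternatives, and the number of the 4 genes called stayed at 1 in OE against insoluble and at 4 in both RIP comparisons. Rps29 in OE had log2 fold changes of 0.78 to 1.06 and adjusted p-values of 8.09e-09 to 0.00234, and in RIP against insoluble of -1.48 to -0.85 and 0.000593 to 0.0319. Rps28 in RIP against insoluble ranged from 1.64 to 2.11 and Rpl39-ps from 2.84 to 3.55. The only called values that moved by over 1.5 times were those of Rps27rt in RIP, where leaving out RIP replicate 2 left 0 counts. Genes called over the tables numbered 53 with DESeq2 against 77 in OE against insoluble, and 55 to 75 when a library was left out; in RIP against insoluble they ranged from 156 to 165 and in RIP against OE from 151 to 162. The median log2 fold change of all genes went to -0.32 with the upper quartile in both RIP comparisons, from 0.03 and -0.10, and to 0.20 with unscaled totals in RIP against OE. With unscaled totals the calls split into 31 higher and 47 lower in OE against insoluble (41 and 36 with TMM) and into 88 and 67 in RIP against OE (72 and 84 with TMM). Levels per length of Rps28 depended most on the transcript chosen, at 1951 in insoluble with the longest transcript, 6441 with the longest coding transcript (chosen after seeing the data) and 10387 with the shortest. The unique share of Rpl39-ps was 24.6% with 30-base words and 100% with 100-base words. With the replicate block 73, 160 and 151 genes were called in the 3 comparisons and no call of the 4 genes changed. Same-numbered libraries did not deviate together (correlations of -0.0267, 0.0511 and 0.0921 in OE against insoluble, 0.0876, -0.0741 and -0.207 in RIP against insoluble, and 0.0568, -0.228 and -0.136 in RIP against OE), so replicate numbers were treated as names only. Depth is unknown, and scaling on selected genes limits every direction given. Low counts limit Rpl39-ps outside RIP and Rps27rt within it.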
